A study of Mus musculus with 8 samples.

Results

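The genes described here are the MHC class I heavy chain genes, their light chain gene B2m, and Nlrc5, in HCA-1 liver tumors of mice given PFSUV-IMQ or saline. The members were taken by name from the gene symbols of the deposited table and joined to the counts by Ensembl identifier. All 10 were found among 55536 counted genes, namely the classical genes H2-K1 and H2-D1, the nonclassical genes H2-Q4, H2-Q6, H2-Q7, H2-T22, H2-T23 and H2-M3, and B2m and Nlrc5. HCA-1 is a mouse hepatocellular carcinoma line, and its cells were implanted in the liver of male C3H mice, whose age the labels give as 6 to 8 weeks and the study's methods as 4 to 6 weeks. On day 17, the IMQNP group received 1 intravenous dose of imiquimod, a TLR7 agonist, at 4 mg/kg in phospholipid-free small unilamellar vesicles (PFSUV-IMQ), and the Control group received saline. Tumors were taken 3 h later and mRNA was sequenced from 4 tumors per group, with replicate numbers 1, 3, 4 and 5 in the control group and 1, 2, 3 and 4 in the PFSUV-IMQ group. The mice carried no transgene or deletion that the labels name, all tumors came from the same cell line, and the comparison asks how the class I genes of the tumors stood 3 h after the dose. A group that received empty vesicles was not analysed here, so the drug and its carrier cannot be told apart.

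Whole tumors were sequenced, so the host cells of the liver and its blood vessels add to each value, and more cells of a type and more RNA per cell cannot be told apart. Counts per tumor totalled 16883911 to 27687756 in the control group and 17008151 to 18527613 in the PFSUV-IMQ group. At these depths 3 counts correspond to 0.108 to 0.178 CPM, which covers counting error only. Markers of hepatocytes summed to 4556 to 35787 CPM in the control tumors and 6563 to 36907 CPM in the PFSUV-IMQ tumors, highest in control replicate 4 and PFSUV-IMQ replicate 2. Of the liver cancer markers, Krt8 and Krt18 were at 443.8 CPM or more in every tumor, whereas Afp, a fetal liver protein, was at 2.096 to 6.081 CPM and Gpc3 at 0.629 to 1.986 CPM. C3H mice carry another haplotype of the class I region than the C57BL/6J reference genome, and how many reads of these alleles aligned to it was not tested.

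An MHC class I molecule is a heavy chain held by beta-2 microglobulin, the light chain, and it carries a short peptide from inside the cell to the surface. The classical molecules H2-K and H2-D show such peptides to CD8+ T cells. The nonclassical molecules vary less between strains and have narrower tasks: H2-T23 encodes Qa-1, the ligand of the CD94/NKG2 receptors of NK cells, H2-M3 presents formylated peptides, H2-Q7 encodes Qa-2, and the product of H2-T22 is bound by gamma delta T cells. Nlrc5 is a coactivator that is recruited to class I promoters by proteins bound to their X and Y boxes, and interferons are known to raise its transcription.

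The promoters of the heavy chain genes resemble each other, and 4 are shown because they belong to members with different values: H2-K1, H2-Q4, H2-T22 and B2m. Each is the 250 bases before the transcription start in RefSeq, on GRCm38.p6, read 5′ to 3′ on the strand of the gene. They lie at chr17:34000348-34000597 on the minus strand (H2-K1), chr17:35379367-35379616 on the plus strand (H2-Q4), chr17:36042743-36042992 on the minus strand (H2-T22) and chr2:122147437-122147686 on the plus strand (B2m). Capitals mark the motifs searched on both strands, which were TTTCNNTTT (interferon-stimulated response element), TTCNNNGAA (STAT site), GGGATTCCC (enhancer A), TGACG (letters of the X2 box), ATTGG (Y box) and TTTCACTT, a stretch chosen after the class I promoters were read. In H2-T22 the stretch TTTCACTT overlaps TTTCNNTTT. In H2-K1 and B2m TGACG lies farther from the start than the Y box letters, whereas in H2-Q4 and H2-T22 it lies nearer to the start than ATTGG, so there it is not at the usual place of an X2 box.
H2-K1: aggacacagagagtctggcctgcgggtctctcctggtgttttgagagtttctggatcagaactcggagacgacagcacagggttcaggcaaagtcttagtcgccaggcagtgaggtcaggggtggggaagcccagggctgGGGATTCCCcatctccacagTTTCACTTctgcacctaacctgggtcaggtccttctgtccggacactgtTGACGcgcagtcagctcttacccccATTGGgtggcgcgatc
H2-Q4: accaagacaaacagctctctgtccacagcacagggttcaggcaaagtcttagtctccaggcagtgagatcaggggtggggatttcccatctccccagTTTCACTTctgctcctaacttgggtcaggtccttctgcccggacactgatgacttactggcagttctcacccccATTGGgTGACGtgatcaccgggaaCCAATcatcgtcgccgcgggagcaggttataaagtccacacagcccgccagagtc
H2-T22: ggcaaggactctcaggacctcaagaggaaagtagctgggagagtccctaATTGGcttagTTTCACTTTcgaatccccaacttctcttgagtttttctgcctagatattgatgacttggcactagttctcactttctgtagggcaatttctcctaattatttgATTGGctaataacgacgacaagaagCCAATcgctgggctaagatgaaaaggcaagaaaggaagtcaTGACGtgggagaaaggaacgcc
B2m: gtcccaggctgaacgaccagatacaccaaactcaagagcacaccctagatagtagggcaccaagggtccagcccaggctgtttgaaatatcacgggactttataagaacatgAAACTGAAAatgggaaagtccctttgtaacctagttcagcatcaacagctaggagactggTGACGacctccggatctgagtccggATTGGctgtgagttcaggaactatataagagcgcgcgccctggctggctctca

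RefSeq listed such a promoter for 9 of the 10 members, all but Nlrc5. The Y box letters ATTGG were found in all 9, against 34.5% of 27025 mouse promoters of the same length. TGACG was found in 7 of the 9, against 17.9%, and was not in the windows of H2-Q6 and H2-T23. The enhancer A letters were found in H2-K1, H2-D1, H2-Q6 and H2-Q7, against 0.311% of all promoters. No exact match was found in H2-Q4, H2-T22, H2-T23, H2-M3 or B2m. TTTCNNTTT was found in H2-T22, H2-T23 and B2m, against 9.52%, and TTTCACTT in all heavy chain genes but H2-T23, against 1.44%. TTCNNNGAA was found only in H2-M3 among these 9 windows, against 7.18% of all promoters. Matches are descriptions of these letters and not of bound factors.

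All 9 tested members had a positive log2 fold change in the PFSUV-IMQ tumors, and 3 passed the test: Nlrc5, H2-T22 and H2-Q4. Genes were called at a Benjamini-Hochberg adjusted p under 0.05 in edgeR's quasi-likelihood test, with no limit on the fold change. Over 15998 tested genes this test called 2.46% higher and 0.219% lower, and no member was lower. H2-Q6 had too few counts to be tested. At an unadjusted p under 0.05, 8 of the 9 tested members were higher, against 8.34% of all tested genes. DESeq2's Wald test called 6 members higher, against 4.45% of all tested genes, adding H2-K1, H2-D1 and H2-T23. Among the 9 tested members, 8 had every PFSUV-IMQ tumor above every control tumor, as did 6% of all tested genes, and B2m was the exception. H2-Q6, which was not tested, did not overlap either. The median log2 fold change was 0.88 over the tested members and -0.03 over all tested genes, of which 46% were positive.

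**Figure D1:**
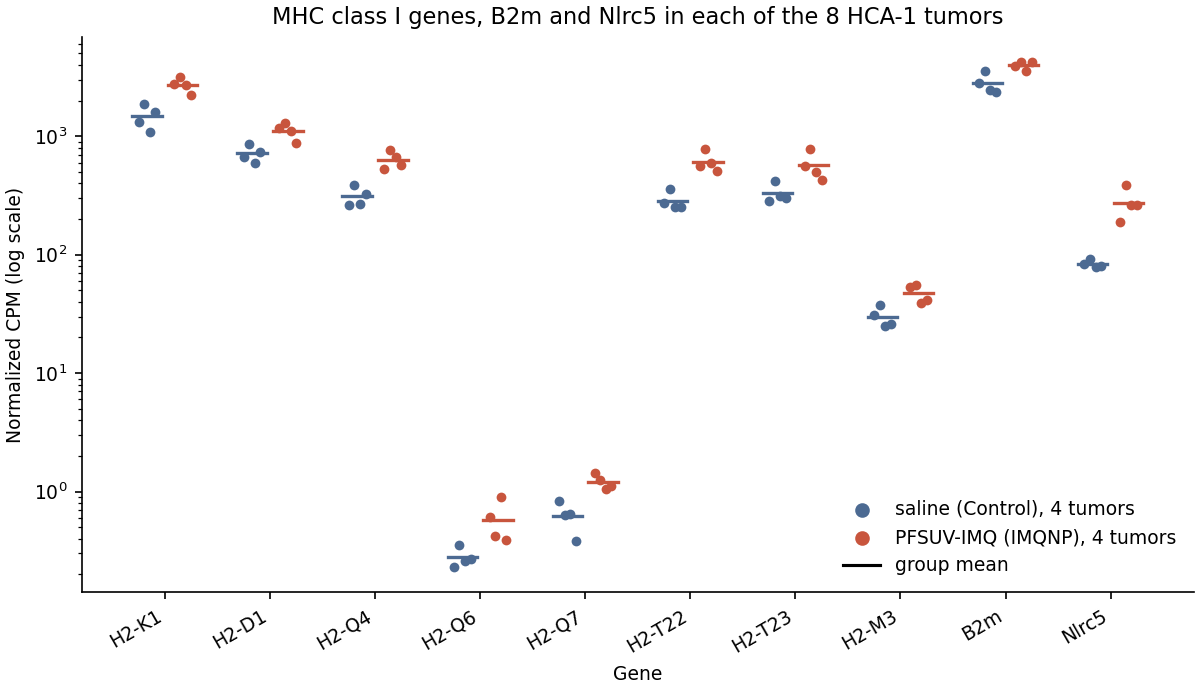
Normalized CPM of each member (log axis) in the 4 control tumors and the 4 PFSUV-IMQ tumors, each point a tumor and each bar a group mean. The groups overlap for B2m, Nlrc5 stands highest above its control values, and H2-Q6 and H2-Q7 lie near 1 CPM or below.

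Per kilobase of exon, B2m was the most abundant member in the control tumors, at 3250 ± 618 CPM per kb (SD, n = 4). H2-K1 followed at 500.4 ± 113.5, H2-D1 at 277 ± 43.3, H2-Q4 at 119.9 ± 22.8, H2-T23 at 114.5 ± 21.4, H2-T22 at 83.7 ± 15.0, H2-M3 at 20.8 ± 3.96 and Nlrc5 at 9.84 ± 0.713 CPM per kb. H2-Q7 at 0.146 ± 0.0433 and H2-Q6 at 0.133 ± 0.0249 CPM per kb were lowest. The lengths join all annotated exons of a gene, so the order depends on the annotation. They take 2889 of the 3083 bases of H2-T23 and 4265 of 4619 of H2-Q7, against 2596 of 5674 of H2-Q4. The ranges of the 4 control tumors overlapped between H2-Q4 and H2-T23, between H2-T23 and H2-T22, and between H2-Q7 and H2-Q6. Within tumors, the counts of H2-Q4 per count of H2-T23, not scaled to length, were 0.918, 0.920, 0.853 and 1.083 in control replicates 1, 3, 4 and 5. The other neighbours were not compared within tumors, and overlapping ranges do not show that levels were alike. In the PFSUV-IMQ tumors the order of the means was the same, with H2-M3 at 32.9 ± 5.56 and Nlrc5 at 32.4 ± 9.67 CPM per kb, whose ranges now overlapped.

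Nlrc5 had the largest change among the members. It was at 82.7, 92.4, 79.1 and 80.1 CPM in control replicates 1, 3, 4 and 5, and at 187.9, 386, 264.5 and 260.8 CPM in PFSUV-IMQ replicates 1 to 4. Every treated tumor was above every control tumor, and the control tumors differed little from each other. The group means were 83.6 ± 6.06 and 274.8 ± 82.1 CPM (SD, n = 4), a log2 fold change of 1.72 (SE 0.22, adjusted p = 0.00367), and the gene ranked 92 among all tested genes by p. It was called in all 17 fits, and its log2 fold change lay between 1.49 and 1.86 in the 8 fits without a tumor. Nlrc5 lies at chr8:94434356-94527272 on the plus strand (GRCm38, GENCODE M21). The noncoding gene 9330175E14Rik on the other strand covers 0.918% of its exon bases.

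Neither classical gene passed the test. H2-K1, at chr17:33996017-34000347 on the minus strand, was at 1323, 1863, 1095 and 1600 CPM in the control tumors and at 2737, 3157, 2729 and 2213 CPM in the PFSUV-IMQ tumors. The groups did not overlap, and the treated tumor of replicate 4 came closest to the controls. The means were 1470 ± 333.5 and 2709 ± 386 CPM (SD, n = 4), with a log2 fold change of 0.88 (SE 0.24, adjusted p = 0.108). The DESeq2 Wald test (adjusted p = 0.00402) and edgeR's exact test (adjusted p = 0.0290) called it higher, and the 8 fits without a tumor did not (adjusted p from 0.146 to 0.289).

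H2-D1, the other classical gene, lies at chr17:35262730-35267499 on the plus strand. It was at 667.4, 857.9, 595.9 and 739.4 CPM in the control tumors and at 1174, 1295, 1111 and 880 CPM in the PFSUV-IMQ tumors. The gap between the groups was narrow, with control replicate 3 just below PFSUV-IMQ replicate 4. The means of 715 ± 111.8 and 1115 ± 174 CPM (SD, n = 4) gave a log2 fold change of 0.64 (SE 0.21, adjusted p = 0.184). Of the other fits, only the DESeq2 Wald test called it (adjusted p = 0.0359).

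All 5 nonclassical genes tested had a positive log2 fold change, and H2-T22 and H2-Q4 were called higher. H2-T22, at chr17:36037128-36042747 on the minus strand, was at 274.6, 361, 253 and 254.8 CPM in the control tumors and at 562, 776, 594.7 and 506 CPM in the PFSUV-IMQ tumors. Every treated tumor was above every control tumor, and the highest was PFSUV-IMQ replicate 2. The means of 285.9 ± 51.1 and 609.7 ± 116.8 CPM (SD, n = 4) gave a log2 fold change of 1.09 (SE 0.21, adjusted p = 0.0242). The call was lost without control replicate 1 (adjusted p = 0.0954), 4 (0.0697) or 5 (0.0620), and without PFSUV-IMQ replicate 3 (0.0760) or 4 (0.0515).

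H2-Q4, which encodes a nonclassical heavy chain of the Q region, lies at chr17:35379617-35385290 on the plus strand. It was at 260.9, 387.9, 268.7 and 327.5 CPM in the control tumors and at 529, 760.9, 669.7 and 566 CPM in the PFSUV-IMQ tumors, again without overlap. The means of 311.2 ± 59.1 and 631.6 ± 104.7 CPM (SD, n = 4) gave a log2 fold change of 1.02 (SE 0.21, adjusted p = 0.0316). In the 8 fits without a tumor the change lay between 0.90 and 1.14 on the log2 scale. The call held only without PFSUV-IMQ replicate 1 (adjusted p = 0.0378) and was lost without each of the other 7 tumors: control replicates 1 (0.125), 3 (0.0522), 4 (0.0895) and 5 (0.0638) and PFSUV-IMQ replicates 2 (0.0677), 3 (0.112) and 4 (0.0827).

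H2-T23, the Qa-1 gene at chr17:36029773-36032855 on the minus strand, did not pass the test. Its values were 284, 421.8, 315 and 302.5 CPM in the control tumors and 564.7, 784.6, 500.4 and 426 CPM in the PFSUV-IMQ tumors. The highest control tumor and the lowest treated tumor almost met. The means were 330.9 ± 61.9 and 569 ± 154 CPM (SD, n = 4), with a log2 fold change of 0.78 (SE 0.23, adjusted p = 0.149). H2-M3, at chr17:37270220-37274484 on the plus strand, was at 31.0, 37.4, 25.2 and 25.8 CPM in the control tumors and at 52.9, 55.3, 39.3 and 41.7 CPM in the PFSUV-IMQ tumors. Its groups were also separate, with means of 29.9 ± 5.69 and 47.3 ± 7.99 CPM (SD, n = 4) and a log2 fold change of 0.66 (SE 0.19, adjusted p = 0.129). DESeq2 gave H2-T23 an adjusted p of 0.0352 and H2-M3 an adjusted p of 0.0540.

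H2-Q7 and H2-Q6 had few counts, and whether these reads came from related genes was not tested. H2-Q7, at chr17:35439155-35443773, had 18, 18, 15 and 7 counts in the control tumors and 26, 18, 19 and 20 counts in the PFSUV-IMQ tumors, or 0.622 ± 0.185 and 1.21 ± 0.170 CPM (SD, n = 4). Its log2 fold change was 0.95 (SE 0.32, adjusted p = 0.212). H2-Q6, at chr17:35424850-35430055, had 5, 10, 6 and 5 counts in the control tumors and 11, 6, 16 and 7 counts in the PFSUV-IMQ tumors. The counts overlapped, whereas the values scaled to library size, 0.278 ± 0.0520 and 0.576 ± 0.232 CPM, did not. Tested without the filter on low counts, H2-Q6 had a log2 fold change of 1.02 (adjusted p = 0.579). Neither gene passed the test.

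B2m, the light chain gene at chr2:122147686-122153083 on the plus strand, was the only member whose groups overlapped. It was at 2822, 3535, 2456 and 2366 CPM in the control tumors and at 3893, 4237, 3524 and 4237 CPM in the PFSUV-IMQ tumors, so control replicate 3 lay within the treated range. The means were 2795 ± 532 and 3972 ± 340.2 CPM (SD, n = 4), with a log2 fold change of 0.51 (SE 0.23, adjusted p = 0.385). No fit called it, and the log2 fold change without a tumor lay between 0.43 and 0.64.

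Classical and nonclassical genes were then compared by their summed levels and, within each tumor, by shares and ratios. The counts of H2-K1 and H2-D1 summed to 1990, 2721, 1691 and 2339 CPM in the control tumors and to 3912, 4452, 3840 and 3093 CPM in the PFSUV-IMQ tumors, with means of 2185 ± 444.6 and 3824 ± 558.8 CPM (SD, n = 4). The 6 nonclassical genes summed to 851.6, 1209, 862.9 and 911.2 CPM and to 1711, 2378, 1806 and 1542 CPM, with means of 958.7 ± 168.9 and 1859 ± 362.7 CPM. The ratio of the treated to the control mean was 1.75 for the classical and 1.94 for the nonclassical sum. Neither sum overlapped between the groups.

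The nonclassical share of all heavy chain counts did not separate the groups. It was 29.97, 30.77, 33.79 and 28.03% in the control tumors and 30.43, 34.82, 31.99 and 33.27% in the PFSUV-IMQ tumors. The Wilson 95% interval of a tumor, which covers counting error only, ran at most from 33.41 to 34.17%, as in control replicate 4, and the intervals of some tumors overlapped. The group means were 30.6 ± 2.39 and 32.6 ± 1.87% (SD, n = 4), and the ranges overlapped. The counts of B2m per heavy chain count were 0.993, 0.900, 0.962 and 0.728 in the control tumors and 0.692, 0.620, 0.624 and 0.914 in the PFSUV-IMQ tumors. All treated tumors were below all controls except PFSUV-IMQ replicate 4, which was among them.

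Gene by gene, 14 log2 ratios were tested between the groups, each nonclassical gene and B2m against H2-K1 and against H2-D1. None passed after adjustment over the 14 pairs in an exact permutation test (two-sided, 70 groupings of the tumors), which cannot give a p below 0.0286. A pair that alone reaches this smallest p has an adjusted p of 0.40 over 14 pairs. The adjusted test could therefore not pass a single pair, and its outcome does not show that the ratios were alike. H2-T22 to H2-D1 reached that smallest p: the log2 ratio was -1.28, -1.25, -1.24 and -1.54 in the control tumors and -1.06, -0.74, -0.90 and -0.80 in the PFSUV-IMQ tumors. The groups did not overlap and the difference of the means was 0.45 (adjusted p = 0.40 from the exact permutation test). H2-Q4 to H2-D1 differed by 0.39 (exact permutation p = 0.0857, adjusted p = 0.40), with PFSUV-IMQ replicate 1 at -1.15 among the controls, which ran from -1.35 to -1.15. Relative to H2-K1 the same genes differed by less, H2-T22 by 0.19 (exact permutation p = 0.229) and H2-Q4 by 0.13 (exact permutation p = 0.429).

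**Figure D2:**
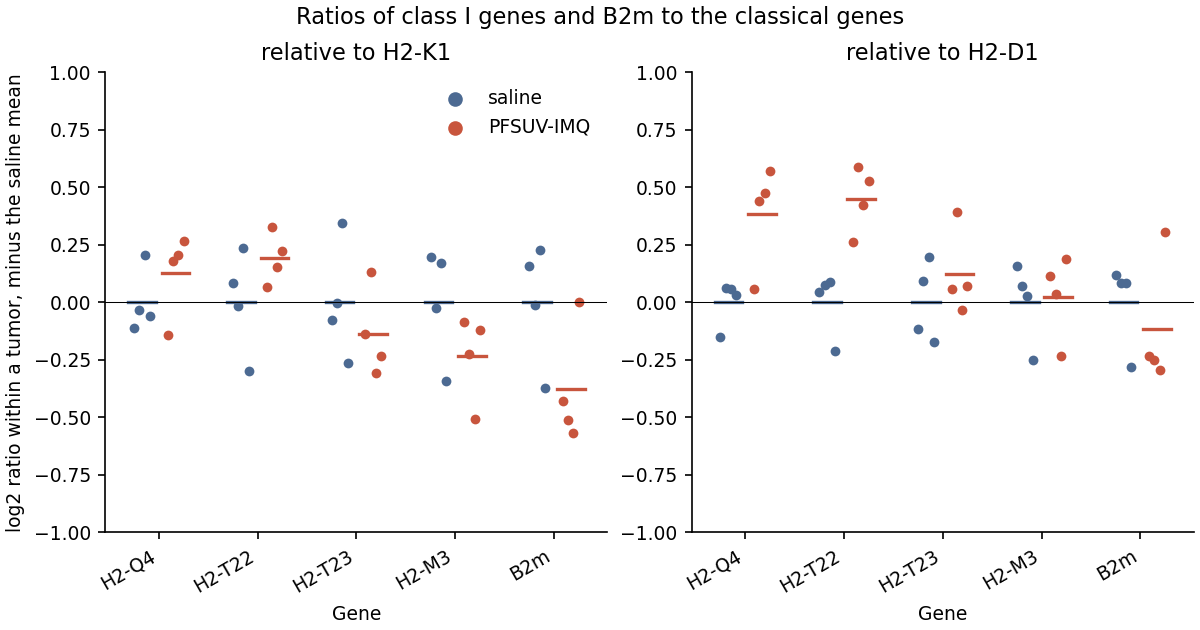
Log2 ratio of 4 nonclassical genes and B2m to H2-K1 (left) and to H2-D1 (right) within each tumor, minus the mean of the 4 control tumors. Points are tumors and bars group means; against H2-D1 the PFSUV-IMQ tumors lie 0.45 higher for H2-T22 and 0.39 higher for H2-Q4 on average, and against H2-K1 B2m lies 0.38 lower with overlapping groups.

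H2-T23 and H2-M3 gave differences of either sign against the classical genes. H2-T23 differed by 0.12 relative to H2-D1 (exact permutation p = 0.40) and by -0.14 relative to H2-K1 (exact permutation p = 0.429). For H2-M3 the values were 0.02 (exact permutation p = 0.771) and -0.23 (exact permutation p = 0.20). B2m differed by -0.38 relative to H2-K1 (exact permutation p = 0.0857) and by -0.12 relative to H2-D1 (exact permutation p = 0.457). A p that misses the threshold in this design does not show that the ratios were alike.

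How reads of this family were assigned bears on these ratios, since its genes share sequence. Cut into words of 50 bases, the annotated transcripts of H2-T22 shared 53.5% of their words with other genes, of which the largest part was H2-T10 (31.2%), a neighbouring nonclassical gene. The antisense gene A930015D03Rik held 26.5%, and it had 0 counts in every control tumor and 0 to 2 in the PFSUV-IMQ tumors. Words were matched on both strands, and this gene overlaps 29.4% of the exon bases of H2-T22 on the opposite strand. Words shared with it can thus be the same bases of the genome and not a related sequence elsewhere. H2-Q4 shared 36.4%, mainly with the antisense gene Gm11131 (15.3%) and with H2-Q6 (9.68%), and Gm11131 had 7 to 19 and 9 to 22 counts. H2-Q6 shared 35.0% and H2-Q7 26.5% of their words, the latter mostly with H2-Q10 (14%). The share was 9.63% for H2-K1, 12.8% for H2-D1, 14.5% for H2-T23, 0.576% for H2-M3, 0.338% for Nlrc5 and 0% for B2m. Whether counting used strand is not given in the sources used here, and reads that fit several genes could be split or lost, so values of H2-T22, H2-Q4, H2-Q6 and H2-Q7 are less certain than those of Nlrc5, B2m and H2-M3.

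Of the other genes of the class I family, 2 of the 14 tested were called higher, against 2.46% of all tested genes. Both lie among the nonclassical genes of the T region. This list and those below were chosen with earlier results of these data known. H2-T10 had means of 29.41 ± 5 and 64.2 ± 3.88 CPM (SD, n = 4) and a log2 fold change of 1.12 (SE 0.16, adjusted p = 0.00613). H2-T24 had means of 21.9 ± 2.57 and 78.1 ± 32.3 CPM and a log2 fold change of 1.83 (SE 0.26, adjusted p = 0.00614). Their ranges did not overlap, at 22.98 to 33.52 against 59.8 to 68.1 CPM for H2-T10 and 19.4 to 25.2 against 59.4 to 126.5 CPM for H2-T24. Both calls held in each of the 8 fits without a tumor.

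The remaining family members did not pass the test, and their median with the 2 called genes was 0.21. DESeq2 called 3 of the 14 higher, against 4.45% of all tested genes. The added gene was H2-Q1 of the Q region, at 65.8 to 73.4 CPM in the control tumors and 80.6 to 112 CPM in the PFSUV-IMQ tumors. H2-Q1 had a log2 fold change of 0.53 (adjusted p = 0.117 in edgeR and 0.0372 in DESeq2). H2-Q2, at about 1 CPM, had a log2 fold change of 1.45 (SE 0.42, adjusted p = 0.137). H2-Q10, which encodes a class I molecule secreted by the liver, ranged from 98.1 to 724.5 CPM in the control tumors and from 163.8 to 966.9 CPM in the PFSUV-IMQ tumors, with a log2 fold change of 0.39 (SE 0.67). The lipid-presenting genes Cd1d1 and Cd1d2 had log2 fold changes of 0.02 and -1.21 (adjusted p = 0.994 and 0.242), and the iron regulator Hfe -0.19 (adjusted p = 0.922). H2-T3, H2-M5 and H2-M9 had too few counts to be tested, and H2-T9 was not matched.

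**Figure D3:**
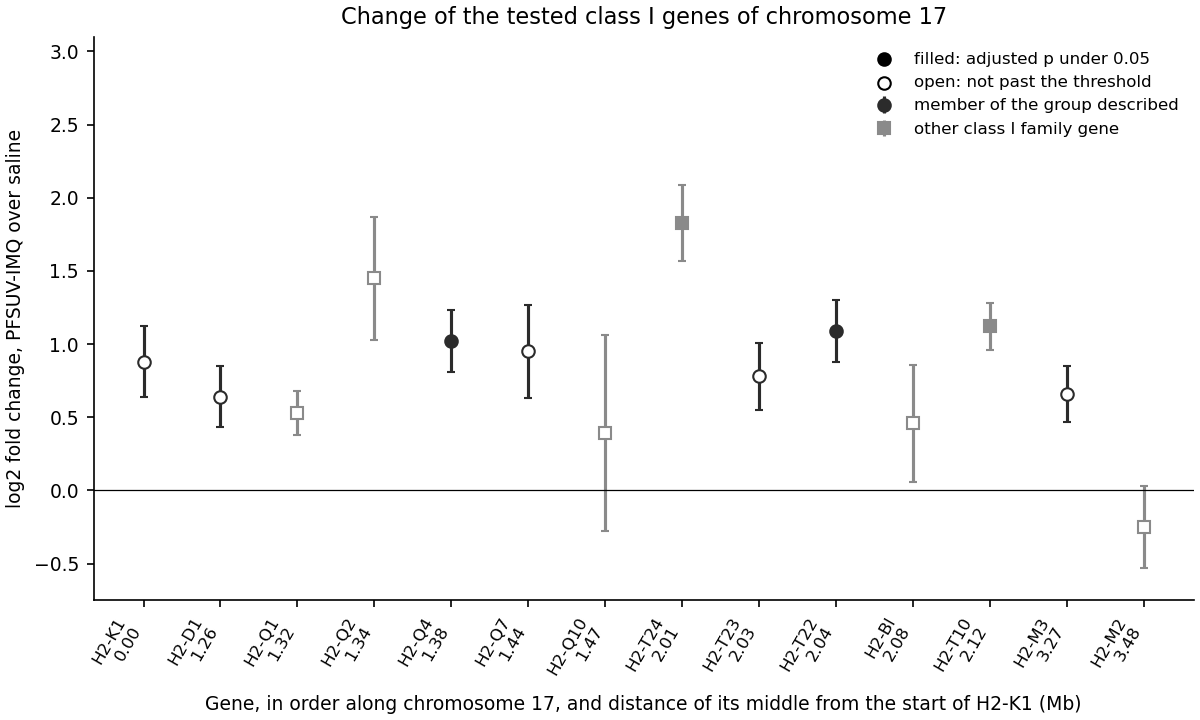
Log2 fold change (points, with the SE as bars) of the tested class I genes of chromosome 17, in their order along the chromosome, with the distance in Mb from the start of H2-K1 under each name. Filled symbols passed an adjusted p of 0.05; these are H2-Q4 at 1.02, H2-T24 at 1.83, H2-T22 at 1.09 and H2-T10 at 1.12, while H2-K1 and H2-D1 are open at 0.88 and 0.64.

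The genes that supply and load the peptide were all higher in sign, and 4 of 13 were called higher, against 2.46% of all tested genes. The 4 were Tap1 and Tap2, the subunits of the peptide transporter, Tapbp (tapasin), which tethers the heavy chain to it, and Psmb10, a subunit of the immunoproteasome. Tap1 had means of 131.2 ± 23.5 and 406.3 ± 113 CPM (SD, n = 4) and a log2 fold change of 1.63 (SE 0.23, adjusted p = 0.00602). The log2 fold changes were 1.50 for Tap2 (adjusted p = 0.00876), 1.48 for Tapbp (adjusted p = 0.0172) and 1.37 for Psmb10 (adjusted p = 0.0227). The median of the list was 0.75, and its smallest values were those of the general chaperones Calr (0.07, adjusted p = 0.939) and Canx (0.01, adjusted p = 0.990). DESeq2 called 8 of the 13 higher, against 4.45% of all tested genes. Without control replicate 1, 2 were called in edgeR, Tap1 and Tap2. Psmb10 lost its call without any of the 4 control tumors or without PFSUV-IMQ replicate 3.

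Among 19 regulators of class I transcription, 4 were called higher, against 2.46% of all tested genes, and all 4 belong to the interferon pathway. Irf7 had means of 67.8 ± 13.3 and 520.4 ± 219 CPM (SD, n = 4) and a log2 fold change of 2.94 (SE 0.31, adjusted p = 0.00121). Stat2 had a log2 fold change of 2.34 (adjusted p = 0.000499), Irf2 1.37 (adjusted p = 0.0340) and Irf9 1.26 (adjusted p = 0.00870). DESeq2 called 5 higher, against 4.45% of all tested genes, adding Irf1. The log2 fold change of Irf1 was 0.87 (adjusted p = 0.0939 in edgeR and 0.0129 in DESeq2). The factors of the X and Y boxes on which Nlrc5 depends did not pass the test, with values from -0.20 for Nfyc to 0.60 for Rfx5, and Nfyb at -0.01 (adjusted p = 0.993) and Irf8 at 0.03 (adjusted p = 0.987) were nearest to 0. Ciita, the class II counterpart of Nlrc5, was at 57.8 ± 9.86 and 32.01 ± 7.72 CPM (SD, n = 4), a log2 fold change of -0.85 (SE 0.21, adjusted p = 0.0722). It was chosen after its values were seen, and it was called lower by DESeq2 (adjusted p = 0.0133) and without PFSUV-IMQ replicate 2. Irf7, Stat2 and Irf9 kept their calls in all 8 fits without a tumor, and Irf2 lost its call without any of the 4 control tumors or without PFSUV-IMQ replicate 3 or 4.

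**Figure D4:**
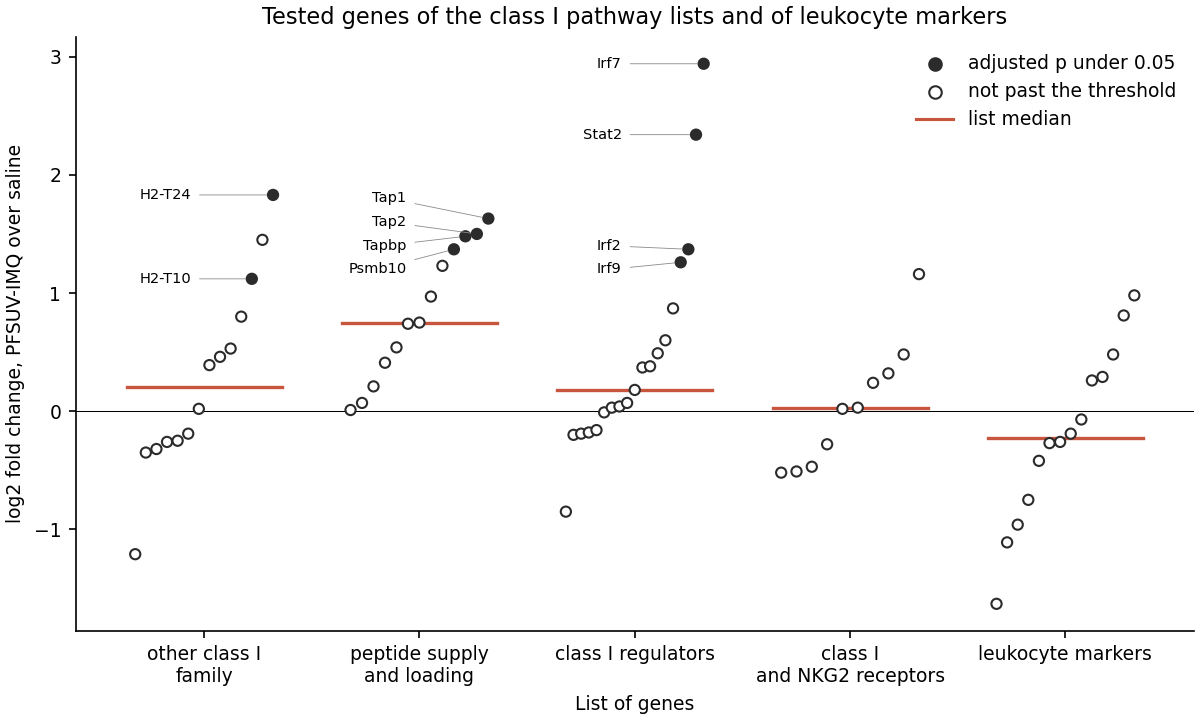
Log2 fold change of each tested gene of 4 class I lists and of the leukocyte markers, sorted within a list, with the list median as a line. Filled points passed an adjusted p of 0.05; the medians are 0.75 for peptide supply and loading, 0.18 for regulators, 0.21 for the other class I family genes, 0.03 for receptors and -0.22 for leukocyte markers.

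None of the 10 tested receptors of class I and related molecules passed edgeR's test, which called 2.46% of all tested genes higher. DESeq2 also called 0, against 4.45% of all tested genes higher. At these shares 0 calls among 10 genes do not set the list apart. At an unadjusted p under 0.05 there was 1 higher, Klrk1, against 8.34% of all tested genes. Klrk1, the activating receptor NKG2D, was at 13.2 ± 5.05 and 29.5 ± 18.5 CPM (SD, n = 4), a log2 fold change of 1.16 (SE 0.41, adjusted p = 0.252). Klrc1, the NKG2A subunit of the Qa-1 receptor, had a log2 fold change of 0.02 (adjusted p = 0.995) and Pirb, an inhibitory receptor of myeloid cells, 0.03 (adjusted p = 0.985). Klra3 and Cd160, which also bind class I, were at -0.52 and -0.51.

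Markers of other cell types were looked at in the same test. Of 14 tested leukocyte markers, 5 had a positive and 9 a negative log2 fold change, and edgeR called 0 in either direction. Of all tested genes it called 2.46% higher and 0.219% lower, so 0 calls in a list this short do not set it apart. Whether the numbers of these cells changed was not tested. At an unadjusted p under 0.05, 3 (Clec4f, Siglech and Ncr1) were lower and 0 higher, against 8.34% of all tested genes higher. The share of all genes lower at that threshold was not counted, so the 3 lower markers cannot be set against it. Of these markers DESeq2 called 1 lower, the Kupffer cell marker Clec4f, against 170 of all 15998 tested genes. Clec4f was also called without control replicate 1. The summed level of the leukocyte markers was 348.4 to 532.2 CPM in the control tumors and 231.4 to 570.2 CPM in the PFSUV-IMQ tumors, and the neutrophil marker Ly6g had 0 to 0.489 and 0.0558 to 1.258 CPM. The largest log2 fold changes were -1.63 for Ncr1, -1.11 for Siglech and 0.98 for S100a8 (adjusted p from 0.271 to 0.672), and the smallest -0.07 for Cd3e and -0.19 for Cd4. PFSUV-IMQ replicate 2 had the highest leukocyte sum, the highest hepatocyte sum and the highest values of H2-K1, H2-D1, H2-Q4, H2-T22, H2-T23, H2-M3 and Nlrc5.

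None of the 8 hepatocyte, 6 liver cancer and 6 endothelial markers was called by edgeR's quasi-likelihood test or by DESeq2, and none had an unadjusted p under 0.05. Of all tested genes edgeR called 2.46% and DESeq2 4.45% higher, and 8.34% were higher at an unadjusted p under 0.05 in edgeR. Lists this short are not set apart by 0 calls. Their median log2 fold changes were 0.10, 0.02 and -0.40. In the hepatocyte list, the values nearest to 0 were -0.03 for Apob and 0.04 for Apoa1, and the farthest were 0.50 for Cps1, -0.41 for Cyp2e1 and 0.22 for Serpina1a. In the liver cancer list they were 0.36 for Gpc3, -0.18 for Afp and 0.10 for Epcam, with Cdh1 at -0.00 and Krt8 at -0.03. The endothelial markers Stab2, Tek and Kdr were at -0.83, -0.66 and -0.63, and Cdh5 and Lyve1 at -0.05 and 0.03. Without control replicate 4 and PFSUV-IMQ replicate 2, the tumors with the highest hepatocyte sums, Nlrc5 had a log2 fold change of 1.46 (adjusted p = 0.00611), whereas H2-T22 at 0.88 (adjusted p = 0.0696) and H2-Q4 at 0.83 (adjusted p = 0.0999) lost their calls.

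The genes whose values across the 8 tumors were most like those of a member were sought among 14660 tested genes outside the members. The members were left out, so none of them could appear as nearest to another member. The measure was the root mean square difference of log2 CPM centred on each gene's own mean. The group difference is part of this measure, so the fold changes and calls of these genes follow from their choice and are given as a description. For Nlrc5 they were Mitd1 (0.151), Peli1 (0.171), Dusp28 (0.186), Sp110 (0.188) and Isg20 (0.190), with log2 fold changes from 1.54 for Peli1 to 1.84 for Mitd1, and all 5 were called higher. For H2-K1 they were Pim1 (0.125), Nub1 (0.140), Igf2bp3 (0.145), H2-T10 (0.162) and Rnf114 (0.162), with log2 fold changes from 0.91 for Nub1 to 1.12 for H2-T10, and 4 were called. For B2m they were Laptm4a (0.104), Stk38l (0.114), Cd200 (0.114), Sh2d4a (0.123) and Got1 (0.128), none of them called. Of the class I family only genes outside the members could be found, and none of these was among the genes nearest to B2m or Nlrc5.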

How the data were processed

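Every test used the counts per gene that the authors deposited for the 8 HCA-1 tumors. Their normalized table holds signal values, deposited as each tumor's counts over a DESeq2 size factor (largest relative departure from a single factor 4.94e-10); it supplied only gene symbols. The study's methods name TopHat and HTSeq for alignment and counting, whereas the submitters' processing notes name Trimmomatic 0.38, HISAT2 2.1.0 and featureCounts 2.0.0. The genome build is not given in the sources used here, and all 55536 gene identifiers are in GENCODE M21 (GRCm38). Libraries were made with a KAPA mRNA HyperPrep kit.

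Counts were normalized by TMM, filtered by filterByExpr and compared by the quasi-likelihood test of edgeR 4.0.16 in R 4.3.3, with Benjamini-Hochberg adjustment over 15998 genes. SE were taken as the log2 fold change over the root of the F statistic. Log2 ratios were taken from log2 CPM (prior count 2) and compared by exact permutation tests over all groupings, computed with numpy 2.4.6. Alternatives were DESeq2 1.42.0, other scalings, filters and calls, a term for the replicate number, each tumor left out in turn, and, chosen after seeing the data, a fit without the tumor of each group with the highest hepatocyte markers. Fits were tested on simulated data.

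Members and gene lists were chosen with earlier results of these data known. Named genes are all members, and of each list the 3 tested genes with the largest and the 2 with the smallest log2 fold change. Any called gene of a list was also named where at most 5 were called. For Nlrc5, H2-K1 and B2m, the 5 most alike genes outside the members with a mean of at least 1 CPM were added. H2-Q1, H2-Q10, Irf1, Rfx5, Nfyc, Ciita, Clec4f, Ly6g and Krt18 fall outside this rule and were named after their values were seen. Of 97 list entries, 96 were matched, and 2 further genes of the lists are not reported here. The labels list the tumors as separate samples without naming the mice, and p-values measure the spread between these samples. Within a group no 2 tumors agreed within sampling noise, with a chi-square per degree of freedom of at least 26.0. The 95% interval of a share is Wilson's, from scipy 1.17.1.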

Additional observations from a re-analysis of the deposited data

Results flagged for a closer look

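In 56 groups of 4 tumors, the gap of the highest or lowest tumor to its neighbour was compared with Dixon's 95% critical value, which chance passes in about 1 of 20 groups, and 5 values in 4 tumors were past it. The summed nonclassical genes were at 1209 CPM in control replicate 3, against 851.6 to 911.2 CPM in the other control tumors. The log2 ratio of H2-Q4 to H2-D1 was -1.35 in control replicate 1, against -1.17 to -1.15 in the others. The remaining 3 involve H2-T22 or B2m against H2-D1. In control replicate 5 the log2 ratio of H2-T22 to H2-D1 was -1.54, against -1.28 to -1.24, and that of B2m to H2-D1 was 1.68, against 2.04 to 2.08. In PFSUV-IMQ replicate 4 the log2 ratio of B2m to H2-D1 was 2.27, against 1.67 to 1.73 in the other PFSUV-IMQ tumors.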

How the results depend on the processing

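The number of members called higher, 3, was 6 by DESeq2's Wald test, 1 to 3 in the fits without 1 tumor, and 1 without the 2 tumors highest in hepatocyte markers. It was 3 or 4 under the other scalings, filters, tests and the limit on the fold, and no member was called lower in any fit. Over all genes, 394 were called higher, against 712 by DESeq2, 627 by edgeR's exact test and 198 to 398 without 1 tumor. Called lower were 35, against 170 by DESeq2, 110 by the exact test, 64 without a filter on low counts and 8 to 41 without 1 tumor. Both groups have tumors numbered 1, 3 and 4, whose deviations from their group means correlated at 0.294, -0.268 and -0.316. Whether tumors of the same number were handled together is not given in the sources used here, and 3 correlations cannot settle it. With the replicate number as a block, 519 genes were called higher and 302 lower, and 3 members were called higher. With a prior count of 0.5 the differences in log2 ratio to H2-K1 changed sign for H2-Q6 (0.03, from -0.11) and H2-Q7 (0.08, from -0.00). Without 1 tumor, 10 of the differences, all within 1 SD of the value with all tumors, changed sign in 4 pairs: H2-Q6 to H2-K1 (to 0.00 and 0.08), H2-Q7 to H2-K1 (to 0.05, 0.06, 0.16 and 0.17), H2-Q6 to H2-D1 (from 0.15 to -0.05) and H2-M3 to H2-D1 (from 0.02 to -0.00, -0.03 and -0.06). The causes of the other changes were not tested. Of the other results, such as single members and lists, 402 kept their direction and any call, or nearly their count, under an alternative, 4 gained a call, 14 lost it and 6 counts moved. H2-Q6 and H2-Q7 rest on few counts.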

Other observations

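The H2-K2 gene, a transcribed pseudogene next to H2-K1 at chr17:33974659-33978827 (GRCm38, GENCODE M21), was chosen after its values were seen. It was at 6.221 to 8.608 CPM in the control tumors and at 22.8 to 72.2 CPM in the PFSUV-IMQ tumors, or 7.18 ± 1.01 and 38.7 ± 22.9 CPM (SD, n = 4), with a log2 fold change of 2.43 (SE 0.37, adjusted p = 0.00799 from edgeR). The pseudogene H2-T-ps, chosen in the same way, had a log2 fold change of 0.58 (SE 0.21, adjusted p = 0.268).

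The counts of H2-K1 per count of H2-D1 were also looked at only after the data were seen, and they were not among the pairs tested. They were 1.982, 2.172, 1.838 and 2.164 in control replicates 1, 3, 4 and 5 and 2.331, 2.437, 2.457 and 2.514 in PFSUV-IMQ replicates 1 to 4. The means were 2.04 ± 0.160 and 2.44 ± 0.0765 (SD, n = 4), and the groups did not overlap. The noncoding gene 9330175E14Rik, on the strand opposite to Nlrc5 and overlapping its start, was at 5.53 ± 1.15 and 11.4 ± 2.43 CPM, a log2 fold change of 1.05 (SE 0.23, adjusted p = 0.0511).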
